A study of Mus musculus with 13 samples.

Results

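The genes described here are 6 genes of meiotic strand exchange, *Dmc1*, *Brca2*, *Meiob*, *Spata22*, *Psmc3ip* and *Mnd1*, out of 55335 genes counted in mouse fetal oocytes. They were chosen by symbol, for what their proteins are known to do, and each matched 1 gene of the count table through GENCODE M21. The study asked what loss of the glucocorticoid receptor (GR, gene *Nr3c1*) does to female germ cells. GFP-positive cells were sorted from each embryo's ovaries at E17.5 (embryonic day), and a 3' Tag-Seq library, which reads only the 3' ends of polyadenylated transcripts, was made from each. The 13 embryos fell into 4 groups, and all 13 carried a GFP transgene under *Pou5f1* (Oct4) control, which marks germ cells. In the constitutive cross, 3 WT embryos had intact GR and 3 KO embryos were homozygous for an *Nr3c1* allele lacking exon 3, first deleted in all tissues with β-actin Cre. In the conditional cross, 3 flox embryos carried floxed *Nr3c1* without Cre, and 4 cKO embryos carried it together with a tamoxifen-inducible Cre inserted at *Pou5f1*, so that deletion was driven in cells that express *Pou5f1*. Every dam of the conditional cross received 125 μg/g tamoxifen at E10.5, so flox and cKO embryos were both exposed, and WT and KO embryos were not. Cross, floxed allele and tamoxifen therefore cannot be told apart where the crosses are compared.

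Meiotic recombination starts with programmed double-strand breaks, whose ends are resected to single-stranded DNA. DMC1, the meiosis-specific recombinase, forms filaments on this DNA and pairs it with the homologous chromosome. BRCA2 loads recombinase onto the DNA, the heterodimer of HOP2 (gene *Psmc3ip*) and MND1 stimulates strand invasion by DMC1, and MEIOB and SPATA22 bind each other and the RPA complex on single-stranded DNA and are needed to complete repair. Fetal oocytes pass through this process in meiotic prophase I, and loss of these genes generally leaves breaks unrepaired.

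Each library held between 2048706 and 3674989 counted reads, and 1 count was worth 0.272 to 0.486 CPM (counts scaled to a common library size with TMM factors, the unit of every level below). Of 10 fetal oocyte markers, 8 had counts, with a summed level of 9641 to 17771 CPM of library totals in the 13 libraries. The other 2, *Sycp3* and *Tex12*, lie wholly inside other gene intervals and were listed at 0. Pregranulosa and stromal markers (14 of 15 with counts) summed to 91.6 to 209 on the same scale. The other 1, *Tcf21*, is also wholly covered by other gene intervals, so its 0 does not show absence. The reads at the 3' end of *Nr3c1* lie outside the deleted exon. The *Nr3c1* level was 44.6 ± 14.8 CPM in WT (SD, n = 3) and 44.6 ± 25.3 in KO (SD, n = 3). Its mean was 65.8 CPM in flox and 52.6 in cKO, and the groups overlapped in both comparisons. By single-cell sequencing with a 3' kit at an earlier stage, the paper reports depletion of this transcript in every ovarian cell type of KO. Such a depletion was not seen between the KO and WT means here, and the reason was not tested. These reads therefore do not check the genotype labels. In bulk libraries, fewer cells of a type and less RNA per cell cannot be told apart.

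Of the 6 genes, 5 have a promoter window in RefSeq (GRCm38.p6, 250 bases before to 50 after the annotated start), and *Meiob* was not matched. All 5 windows hold the E2F core TCCCGC on one strand or the other, a sequence recognised by the E2F family including E2F6, a repressor of germline genes in somatic cells. None of the 5 holds the GR half-site AGAACA. The stretch from 60 bases before to 30 bases after the start is printed here 5' to 3' in the direction of transcription, because it carries most of these matches. Capitals mark matches to TCCCGC or its reverse complement GCGGGA and to the NF-Y box CCAAT or its reverse complement ATTGG.
*Dmc1*, chr15:79605080-79605169, minus strand: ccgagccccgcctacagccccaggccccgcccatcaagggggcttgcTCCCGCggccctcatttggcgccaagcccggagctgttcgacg
*Brca2*, chr5:150522561-150522650, plus strand: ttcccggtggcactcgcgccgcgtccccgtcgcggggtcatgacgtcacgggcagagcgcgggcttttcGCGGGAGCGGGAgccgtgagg
*Spata22*, chr11:73329681-73329770, plus strand: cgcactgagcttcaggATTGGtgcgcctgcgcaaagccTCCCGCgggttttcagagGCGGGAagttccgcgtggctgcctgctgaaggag
*Psmc3ip*, chr11:101095406-101095495, minus strand: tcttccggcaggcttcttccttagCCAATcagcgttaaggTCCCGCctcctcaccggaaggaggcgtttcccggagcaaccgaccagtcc
*Mnd1*, chr3:84155757-84155846, minus strand: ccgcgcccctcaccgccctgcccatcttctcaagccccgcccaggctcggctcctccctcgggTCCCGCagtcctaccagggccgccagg

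In these windows the E2F core began 13 bases before the start in *Dmc1*, 22 and 4 bases before it in *Spata22*, 20 bases before it in *Psmc3ip*, and at base 4 after it in *Mnd1*. *Brca2* had adjoining matches at bases 10 and 16 after its start, and *Dmc1* and *Brca2* each had a further one upstream, 240 and 168 bases before the start. Over all 32851 RefSeq windows of this length, 20.0% held TCCCGC. The members' windows were GC-rich (56.7% to 69.0% GC, against a median of 52.7%), and among the 12614 windows with at least the GC content of the lowest member, 42.1% held it. NF-Y boxes were found in *Spata22* and *Psmc3ip*, and 37.4% of all windows held one. The half-site AGAACA was found in 19.0% of all windows and in 8.79% of the GC-rich ones, and the same half-site followed after 3 bases by its reverse complement occurred in 3 windows, none of them a member's. CNCCTCAG, the sequence reported for STRA8, was in none of the 5 and in 7.94% of all windows. Of 16 further genes of the pathway with a window, 12 held TCCCGC and 2 held AGAACA. A match describes letters in the window, and no binding was measured.

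The deposited counts held reads for 5 of the 6 genes. *Spata22* (ENSMUSG00000112920.1, mm10 chr11:73329741-73346044, plus strand) was listed at 0 in all 13 libraries, and this value cannot be read as absence of its transcript. Its interval lies wholly inside that of *Gm49340* (ENSMUSG00000069825.12), a readthrough model on the same strand that begins at the same base, shares exons of *Spata22* and ends in the olfactory receptor gene *Olfr20*. Over the whole table, 12922 genes were fully covered by the intervals of other genes and 0 of them had a count, while 40.01% of the 30137 genes that nothing overlapped had counts. The counting thus left out reads in wholly overlapped intervals. *Gm49340* itself had 150 to 651 counts per library, 4863 in all. The only stretch of it that no other gene shares begins at the base after the annotated end of *Spata22*, runs for 4738 bases and contains 0 exonic bases of *Gm49340*. With shared bases left out, its counts come from this stretch, downstream of the annotated end of *Spata22*. Which transcript these reads belong to was not tested, and the *Gm49340* values are given below as a neighbouring measurement, not as *Spata22* expression.

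**Figure D1:**
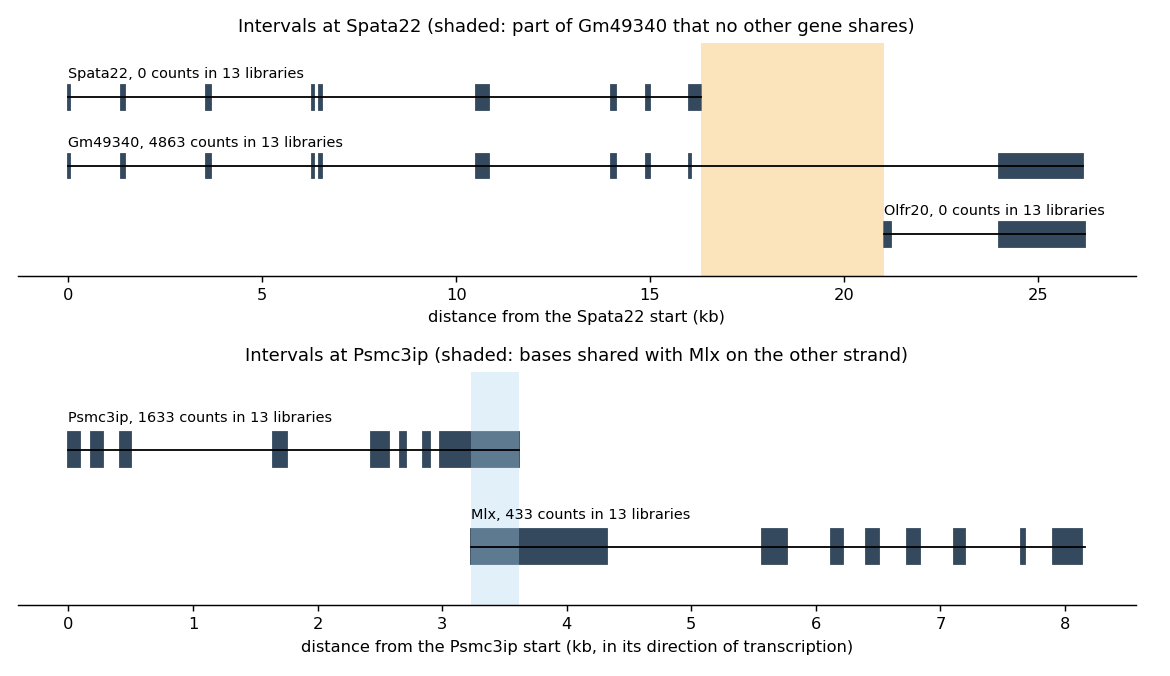
Gene intervals at *Spata22* (top, with distance from its start in kb) and at *Psmc3ip* (bottom, with distance from its start in its direction of transcription), with exons of the longest transcript as boxes. *Spata22* has 0 counts and lies inside *Gm49340* (4863 counts), whose unshared stretch of 4738 bases is shaded in the top map, and the 385 bases that *Psmc3ip* shares with *Mlx* are shaded in the bottom map.

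The other intervals were less affected. *Psmc3ip* (ENSMUSG00000019303.14, chr11:101091823-101095436, minus strand) shares its last 385 bases, in its final exon, with the last exon of *Mlx* on the opposite strand, and *Mlx* had 0 to 86 counts per library. Since the end of a transcript is where 3' tags fall, reads falling in these bases would be missing from the *Psmc3ip* level, by an amount that the table does not give. *Brca2* (ENSMUSG00000041147.10, chr5:150522630-150570329, plus strand) is overlapped over 6460 bases by 4 gene models, all at 0, and none of these bases is in its last 500. *Dmc1* (ENSMUSG00000022429.11, chr15:79561497-79605109, minus strand) is overlapped over 126 bases by 1 model at 0. *Meiob* (ENSMUSG00000024155.8, chr17:24804289-24839788, plus strand) and *Mnd1* (ENSMUSG00000033752.7, chr3:84087933-84155786, minus strand) share no base with another gene.

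Among the 5 genes with counts, *Brca2* had the highest level, 367 ± 89.3 CPM (SD, n = 13), and *Psmc3ip* the lowest, 49.98 ± 21.9. *Mnd1* (139 ± 54.3), *Meiob* (115 ± 50.2) and *Dmc1* (103 ± 60.4) lay between them. *Brca2* exceeded *Mnd1* in 13 of 13 libraries. *Mnd1* was above *Meiob* in 8 of 13, *Meiob* above *Dmc1* in 8 of 13 and *Dmc1* above *Psmc3ip* in 9 of 13, so that the order of these neighbours changed from embryo to embryo. Per kb of the longest annotated transcript the order differed, with *Mnd1* highest at 159 CPM per kb, then *Meiob* at 64.6, *Dmc1* at 46.2, *Psmc3ip* at 38.7 and *Brca2* at 34.2. On this scale *Mnd1* exceeded *Meiob* in 12 of 13 libraries and *Meiob* exceeded *Dmc1* in 9 of 13. *Dmc1* exceeded *Psmc3ip* in only 5 of 13, against the order of their means, and *Psmc3ip* exceeded *Brca2* in 8 of 13, so that these genes did not separate. The *Brca2* transcript is 10724 nt and that of *Mnd1* 875 nt. A 3' tag protocol gives reads at the end of a transcript rather than along it, so counts are not expected to grow with length. The order per kb therefore carries the division by length and does not set aside the order in CPM. CPM is not an exact measure of molecules either. Reads in the 385 bases shared with *Mlx* would be missing from *Psmc3ip* on both scales.

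**Figure D2:**
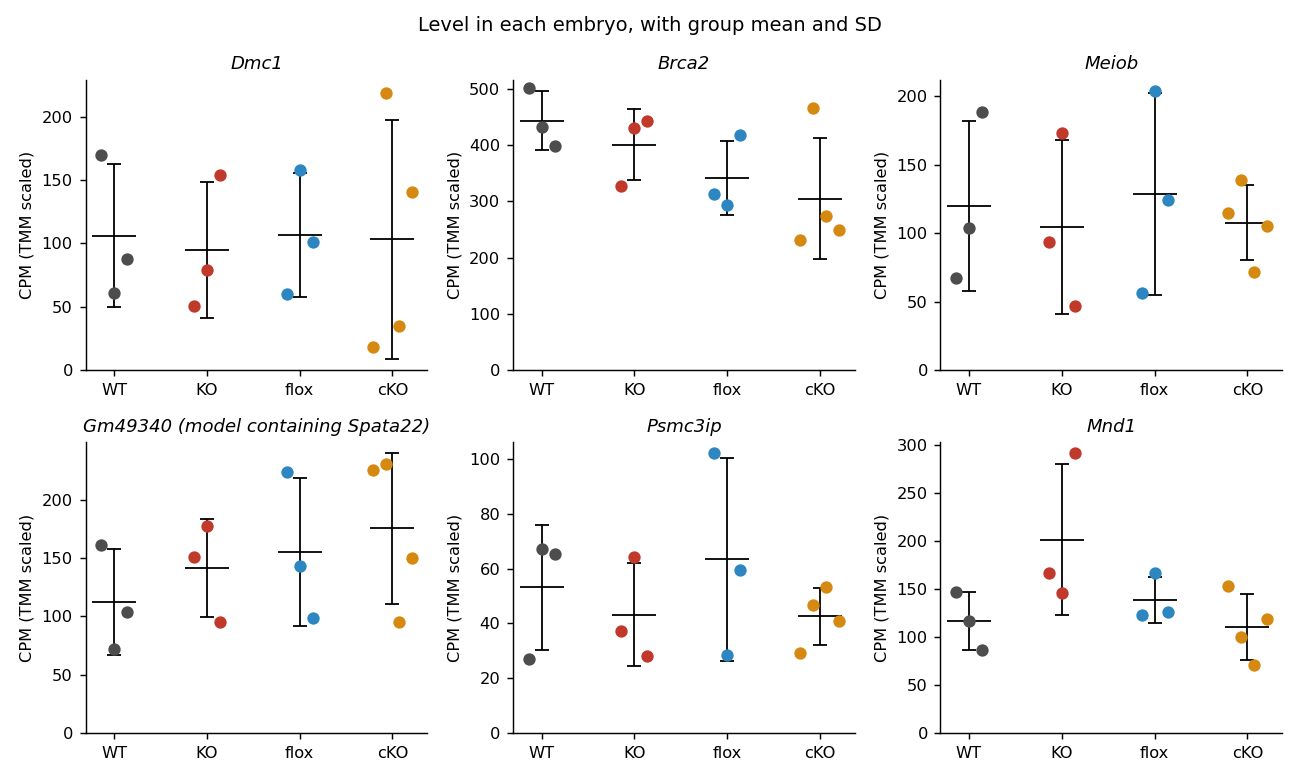
Level in CPM (y axis, TMM scaled) of 5 members and of *Gm49340*, the model containing *Spata22*, with 1 point per embryo and the mean and SD of each group (WT, KO and flox n = 3, cKO n = 4). Groups overlap in every panel, and the cKO embryos span 18.7 to 219 CPM for *Dmc1*.

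*Dmc1* was the most variable of the members between embryos of one group. Its level was 169, 60.7 and 88.1 CPM in WT replicates 1 to 3 and 50.6, 78.8 and 154 in KO replicates 1 to 3. It was 60.4, 158 and 101 CPM in flox and 18.7, 219, 34.9 and 140.5 in cKO. The highest and the lowest of all 13 embryos were thus both cKO, replicates 2 and 1, at 560 and 54 counts. The SD within groups was 1.13 on the log2 scale, and 67 of 3461 genes with a like mean count (1.94%) had a larger one, with a median of 0.519 among them. Library preparation and stage differences between embryos were not tested as a source of this spread.

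The group means of *Dmc1* were 106 ± 56.6 CPM in WT (SD, n = 3), 94.6 ± 53.7 in KO (n = 3), 106 ± 48.9 in flox (n = 3) and 103 ± 94.0 in cKO (n = 4). KO differed from WT by −0.17 log2 (95% confidence interval −1.46 to 1.13) and cKO from flox by −0.04 (−1.25 to 1.17). On mean log2 CPM, which weights the low cKO embryos more, the same differences were −0.18 and −0.55. The fitted intervals are wide enough to hold a change of 1 log2 unit in either direction, so such a change is not excluded. By an exact two-sided permutation test on mean log2 CPM p was 0.7 for KO against WT, where 20 divisions of the libraries allow no p below 0.1, and 0.6 for cKO against flox, where 35 divisions allow none below 0.0286. The sign turned in both comparisons when single libraries were left out, over −0.71 (without KO replicate 3) to 0.35 (without WT replicate 1) for KO and −0.70 (without cKO replicate 2) to 0.36 (without flox replicate 2) for cKO.

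*Brca2*, the loader, was the most evenly expressed member, with an SD within groups of 0.32 log2, below that of 68.3% of genes with a like mean count. It measured 501, 432 and 398 CPM in WT, 328, 430.3 and 443 in KO, 314, 293 and 417 in flox, and 232, 465, 274 and 249 in cKO. KO overlapped WT and cKO overlapped flox. The difference was −0.15 log2 for KO against WT (SE 0.30, interval −0.76 to 0.46) and −0.16 for cKO against flox (SE 0.28, interval −0.73 to 0.41). Averaged over both crosses it was −0.16 (interval −0.57 to 0.26), the narrowest interval for a GR effect among the members.

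The larger contrast in *Brca2* lay between the crosses. Its mean was 422 ± 57.1 CPM in the 6 embryos of the constitutive cross and 320.5 ± 87.7 in the 7 of the conditional cross. Of the conditional embryos, 5 were below the lowest constitutive one (KO replicate 1), and cKO replicate 2 was above all but 1 of them, so the groups overlapped. The difference was −0.39 log2 (SE 0.20, interval −0.80 to 0.03) and did not pass edgeR's quasi-likelihood test (unadjusted p = 0.0696, Benjamini-Hochberg adjusted p = 0.891). An exact permutation test over the 1716 divisions of the libraries gave p = 0.0338 before adjustment for the members compared, and it does not balance GR status. Flox was 0.38 log2 below WT (SE 0.30), and the sign of the cross difference held with each library left out (−0.53 to −0.33).

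*Meiob*, which encodes the SPATA22 partner, measured 67.3, 104 and 189 CPM in WT, 93.5, 173 and 47.1 in KO, 56.6, 204 and 125 in flox, and 115, 139, 72.0 and 106 in cKO. Each group other than cKO held a more than 2-fold range. The SD within groups was 0.75 log2, exceeded by 11.4% of genes with a like mean count. KO differed from WT by −0.20 log2 (SE 0.48, interval −1.19 to 0.79) and cKO from flox by −0.25 (SE 0.45, interval −1.17 to 0.67). The sign turned without WT replicate 3 (0.30) in the first and without flox replicate 2 (0.25) in the second.

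*Gm49340*, the model that contains *Spata22*, measured 161, 71.7 and 104 CPM in WT, 150.5, 177 and 94.99 in KO, 224, 143 and 98.4 in flox, and 225, 231, 95.1 and 149.8 in cKO. The groups overlapped in both comparisons. Its difference was 0.33 log2 for KO against WT (SE 0.40, interval −0.50 to 1.16) and 0.17 for cKO against flox (SE 0.37). These values do not tell whether *Spata22* changed.

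*Psmc3ip*, which encodes HOP2, had the lowest level of the 5, although reads in the 385 of its last 500 bases shared with *Mlx* would be missing. It measured 27.0, 67.4 and 65.3 CPM in WT, 37.2, 64.2 and 28.1 in KO, 102, 28.4 and 59.6 in flox, and 29.1, 46.9, 53.2 and 41.1 in cKO, from 61 to 242 counts per library. Flox replicate 1 was the highest of all 13 embryos, and WT replicate 1, KO replicate 3 and flox replicate 2 were the lowest. The difference was −0.30 log2 for KO against WT (SE 0.55, interval −1.44 to 0.83) and −0.58 for cKO against flox (SE 0.51, interval −1.63 to 0.47). Without flox replicate 1 the latter was −0.05, and that library also had the highest summed level of erythroid markers, 1263 CPM of library totals. Erythroid markers summed to 284 to 1263 in flox and 78.4 to 199 in cKO (5 of 8 with counts, *Hbb-y*, *Hba-x* and *Alas2* at 0), and their part in the flox and cKO values was not tested. *Alas2* is wholly covered by other gene intervals, so its 0 does not show absence.

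*Mnd1* was the one member whose GR effect had an interval that left out 0 in either cross. It measured 146.4, 117 and 86.7 CPM in WT and 167, 145.9 and 292 in KO, so KO replicate 2 lay just below WT replicate 1 and KO replicate 3 stood above all other embryos. In the conditional cross it measured 123, 166 and 126 CPM in flox and 153, 99.6, 70.5 and 119 in cKO. The mean was 117 ± 29.9 CPM in WT (SD, n = 3), 201 ± 78.8 in KO (n = 3), 138 ± 24.1 in flox (n = 3) and 110.4 ± 34.5 in cKO (n = 4). KO was higher than WT by 0.79 log2 (SE 0.36, interval 0.04 to 1.54), with unadjusted p = 0.0387 and Benjamini-Hochberg adjusted p = 0.847 by edgeR's quasi-likelihood test over 13086 genes, so it was not called. The exact permutation p was 0.2. Without KO replicate 3 the difference was 0.43, and that library had the highest summed level of macrophage markers. The sum was 10.53 to 67.3 CPM of library totals in KO against 0.454 to 2.45 in WT (5 of 5 with counts over all libraries). Most of the sum in KO replicate 3 was *C1qc*, at 149 counts there and at 0 in the other KO embryos. *Csf1r* was at 0 in all KO embryos, and *Adgre1* had 0 to 18 counts in them. Endothelial markers (5 of 5 with counts) went the other way in sum. They summed to 8.05 to 30.8 CPM of library totals in KO and 34.8 to 47.3 in WT. Their genes did not all move together. *Pecam1*, the highest by mean, was at 1.94 to 24.7 CPM in KO and 17.3 to 36.8 in WT. The mean of *Cdh5* was also lower in KO (1.28 CPM against 7.30), but that of *Tek* was higher (9.28 against 6.05). *Kdr* and *Emcn* had means of 0.906 CPM or less in both groups. The part of either list in the result was not tested.

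In the conditional cross *Mnd1* lay the other way, 0.33 log2 lower in cKO than in flox (SE 0.34, interval −1.02 to 0.37). The difference between the effects of GR loss in the crosses was −1.12 (SE 0.49, interval −2.13 to −0.10, unadjusted p = 0.0324, adjusted p = 0.9999 by edgeR's quasi-likelihood test), and −0.76 without KO replicate 3. For the other 4 members this difference ran from −0.27 to 0.12. Averaged over the crosses the *Mnd1* effect was 0.23 log2.

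By edgeR's quasi-likelihood test at a Benjamini-Hochberg adjusted p of at most 0.05, 0 of the 5 tested members were called in each of the GR comparisons, where 0% of all 13086 genes were called. No member was called under another normalization or filter, or by DESeq2 or limma's voom. At an unadjusted p under 0.05, 1 of 5 members passed for KO against WT (*Mnd1*, higher), beside 5.82% of all genes, or 2.36% counted in the higher direction alone. For cKO against flox 0 of 5 passed, beside 3.19% of all genes. Averaged over the crosses 0 of 5 passed (5.34% of all genes), and for the difference between the effects 1 of 5 did (*Mnd1*, with 4.39% of all genes, or 1.93% in its direction). Between the control groups, flox against WT, 0 of 5 passed (3.06%, with 0.00764% called after adjustment), and between the crosses 0 of 5 (5.59%, with 0.00764% called). In none of KO against WT, cKO against flox, flox against WT or the crosses did a member have groups that did not overlap. Such separation was shown by 3.79% of genes in the higher and 5.67% in the lower direction for KO against WT, and by 2.18% and 2.79% for cKO against flox. For flox against WT it was shown by 4.26% and 4.03%, and between the crosses by 0.0993% and 0.0611%. The median over the 5 members was −0.17 log2 for KO and −0.25 for cKO, beside −0.03 and −0.01 over all genes tested.

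**Figure D3:**
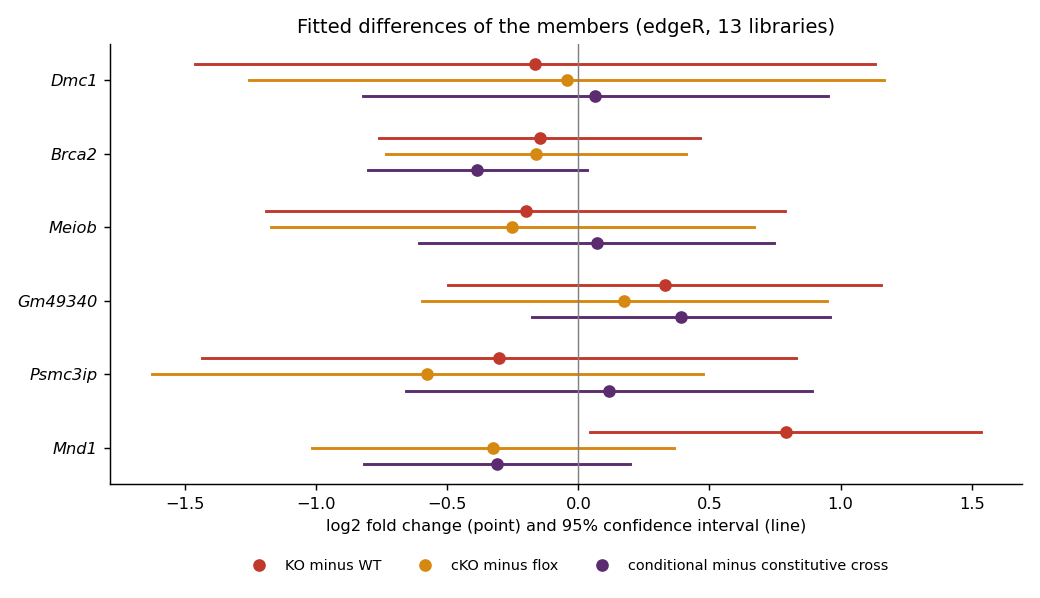
Fitted log2 fold change (x axis, points) with 95% confidence interval (lines) for 5 members and *Gm49340*, in KO minus WT, cKO minus flox and conditional minus constitutive cross. The interval of *Mnd1* in KO minus WT (0.04 to 1.54) is the only one that leaves out 0, and *Brca2* has the narrowest intervals.

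Pairs of members whose proteins bind each other were compared over the 13 embryos. The levels of *Psmc3ip* and *Mnd1*, which form 1 heterodimer, ran against each other (Pearson's r = −0.56, permutation p = 0.0459, Spearman's rho = −0.65, permutation p = 0.0183, Benjamini-Hochberg adjusted 0.0459 and 0.0344 over 2 pairs). Without the 2 embryos farthest from the median of *Psmc3ip* (flox replicate 1 and WT replicate 1) r was −0.66 (permutation p = 0.0227, n = 11). Within the constitutive cross r was −0.72 (exact permutation p = 0.0944, n = 6) and within the conditional cross −0.41 (exact permutation p = 0.356, n = 7), so the sign was the same in each but neither passed alone. KO replicate 3, the highest embryo for *Mnd1*, was among the lowest for *Psmc3ip*.

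*Dmc1* and *Brca2* ran together (r = 0.57, permutation p = 0.0419, rho = 0.60, permutation p = 0.0344, adjusted 0.0459 and 0.0344). Without cKO replicates 1 and 3, the embryos with the least *Dmc1*, r fell to 0.19 (permutation p = 0.568, n = 11), so the r over all embryos depended on those embryos. Leaving them out also narrows the range of *Dmc1*. Within the constitutive cross, which holds neither of them, r was 0.78 (exact permutation p = 0.0472, n = 6) and rho was 0.77 (exact permutation p = 0.103). Within the conditional cross r was 0.61 (exact permutation p = 0.149, n = 7) and rho was 0.61 (exact permutation p = 0.167). The pair of *Meiob* and *Spata22* could not be computed because *Spata22* was at 0. CPM values in 1 library share a total, and depth and sample quality were not removed from these relations.

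**Figure D4:**
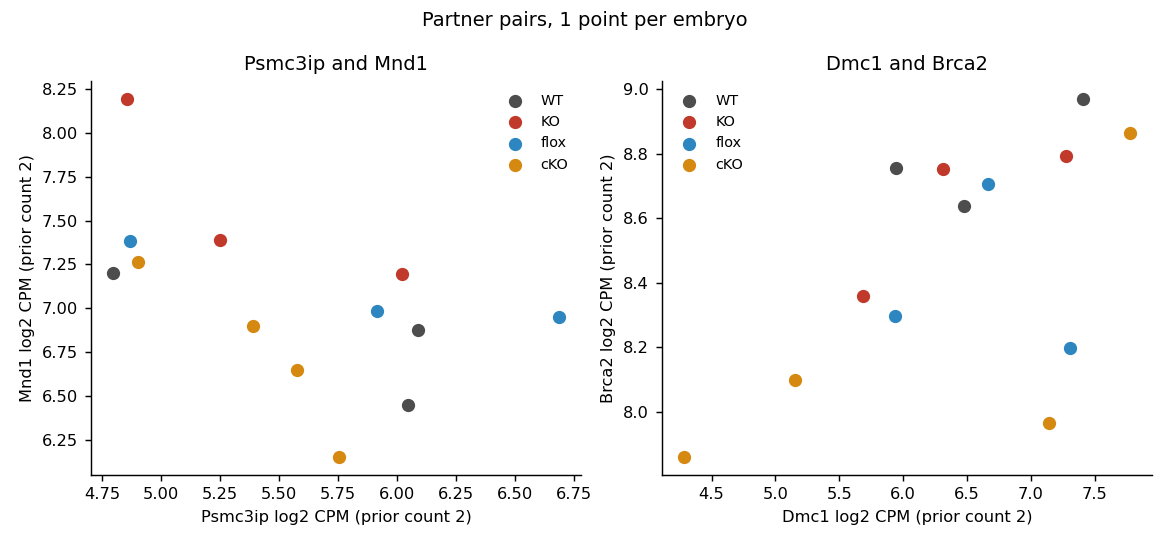
Log2 CPM (prior count 2) of *Psmc3ip* against *Mnd1* (left) and of *Dmc1* against *Brca2* (right), 1 point per embryo, coloured by group. The left panel slopes downward (r = −0.56), and the right panel slopes upward (r = 0.57 over all embryos, 0.19 without the 2 cKO embryos at the far left, and 0.78 among the 6 WT and KO embryos).

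For each measured member the 2 genes with the most similar profile were taken from 7175 genes, by the root mean square (RMS) difference of centred log2 CPM over the 13 libraries. *Brca2* lay nearest to *Ascc3* and *Arid4b*, both at an RMS difference of 0.18 log2 against a deviation of 0.35 in *Brca2* itself. *Mnd1* lay nearest to *Gtf2e2* (0.25) and *Aggf1* (0.28), with a deviation of its own of 0.48. *Meiob* lay nearest to *Stx7* (0.36) and *Ints4* (0.37) beside a deviation of 0.63, and *Psmc3ip* to *Diaph2* and *Pgm2l1* (both 0.34) beside 0.57. For *Dmc1* the nearest genes, *Mlc1* (0.58) and *Lin52* (0.60), differed from it by more on this scale, beside a larger deviation of its own of 0.97, and both had low levels, with medians of 25.9 and 23.7 CPM. No member was among the nearest genes of another, and similar profiles over 13 libraries are a description only.

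Further genes of strand exchange were taken from 3 lists of 22 genes in all, and all 22 were tested. By edgeR's quasi-likelihood test 0 were called in each GR comparison. For KO against WT, 1 of 22 had an unadjusted p under 0.05, higher (beside 5.82% of all genes), 10 of 22 had a positive difference, and the median was −0.09 log2. For cKO against flox 1 of 22 passed, lower (beside 3.19%, or 1.87% in the lower direction), 12 of 22 were positive, and the median was 0.05.

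The 11 mediator and accessory genes ran from −2.11 (*Firrm*) to 0.73 (*Spidr*) log2 in KO against WT, with 4 of 11 positive and a median of −0.58, and the lowest unadjusted p was 0.058 for *Zswim7* at −1.08. *Firrm* had few reads, with 26 to 39 counts per library in WT and 3 to 14 in KO, and all of its last 500 bases lie in other gene intervals. Its KO levels were all below those of WT, as was the case for 5.67% of all genes tested. In cKO against flox 7 of 11 were positive, with a median of 0.11.

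*Spidr*, a scaffold protein of homologous recombination, was 1.53 log2 lower in cKO than in flox (SE 0.48, unadjusted p = 0.0038, adjusted p = 0.9998 by edgeR's quasi-likelihood test). It measured 136, 48.0 and 113 CPM in flox and 32.2, 32.4, 46.6 and 25.5 in cKO, with flox replicate 2 just above the highest cKO embryo. Groups that did not overlap in this direction were shown by 2.79% of all genes tested. The exact permutation p was 0.0286, the lowest that 35 divisions allow. In the constitutive cross it lay the other way, at 47.8, 48.3 and 33.2 CPM in WT and 44.1, 41.3 and 128 in KO, and the difference between the effects was −2.25 (unadjusted p = 0.00382) and −1.52 without KO replicate 3, the 1 KO embryo outside the range of WT. Flox was also above WT in *Spidr*, by 1.07 on mean log2 CPM, with overlapping groups. The exact permutation p was 0.2, where 20 divisions allow none below 0.1. The *Spidr* means were 43.1 CPM in WT, 98.7 in flox and 34.2 in cKO. By edgeR's quasi-likelihood test 0 of the 22 pathway genes were called in flox against WT. At an unadjusted p under 0.05, 1 of 22 was higher and 1 lower, beside 3.06% of all genes. The last 500 bases of *Spidr* lie in another gene's interval. *Rad54b*, which encodes a DNA translocase of homologous recombination, was 0.94 log2 lower in flox than in WT (unadjusted p = 0.0274 by edgeR's quasi-likelihood test). It was also 0.74 log2 lower in KO than in WT (unadjusted p = 0.0752, adjusted p = 0.858 by edgeR's quasi-likelihood test). All KO and all flox embryos were below the lowest WT embryo, as were 5.67% and 4.03% of all genes tested in these comparisons. In cKO against flox *Rad54b* lay the other way, with overlapping groups and means of 103 CPM in cKO and 83.3 in flox. The cKO replicate 2 embryo, at 179 CPM, was above the highest WT embryo at 175. *Swsap1*, part of a complex with *Zswim7* that is needed for DMC1 foci, was higher in the conditional cross (unadjusted p = 0.0411 by edgeR's quasi-likelihood test). It had 0 to 19 counts in the constitutive embryos, and no fold is given. Between the crosses it was the 1 of 22 pathway genes with an unadjusted p under 0.05, beside 5.59% of all genes, and 0 of 22 were called. Among genes of BRCA2-binding proteins, *Hsf2bp* was at 307 ± 69.0 CPM, *Sem1* at 298 ± 148 and *Palb2* at 92.2 ± 36.1 (SD, n = 13).

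The end-resection list (8 genes) held *Bard1*, the partner of BRCA1, at 16.4, 25.8 and 40.8 CPM in WT and 65.8, 101 and 46.6 in KO. It was higher by 1.35 log2 (SE 0.54, unadjusted p = 0.0188, adjusted p = 0.847 by edgeR's quasi-likelihood test), with an exact permutation p of 0.1, and by 0.42 in cKO against flox, where groups overlapped. All KO embryos were above WT, as for 3.79% of all genes tested. Flox was also above WT in *Bard1*, by 0.93 on mean log2 CPM (exact permutation p = 0.2), with overlapping groups. The means were 27.7 CPM in WT, 71.0 in KO, 52.7 in flox and 70.4 in cKO. *Brca1* itself differed by −0.25 in KO against WT and by −0.08 in cKO against flox. In cKO against flox the lowest unadjusted p of this list was 0.192, for *Rbbp8*. Of the 3 RPA subunits, which coat the single-stranded DNA that MEIOB and SPATA22 also bind, none had an unadjusted p under 0.05 (lowest 0.413 for *Rpa3* in KO and 0.318 for *Rpa2* in cKO).

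**Figure D5:**
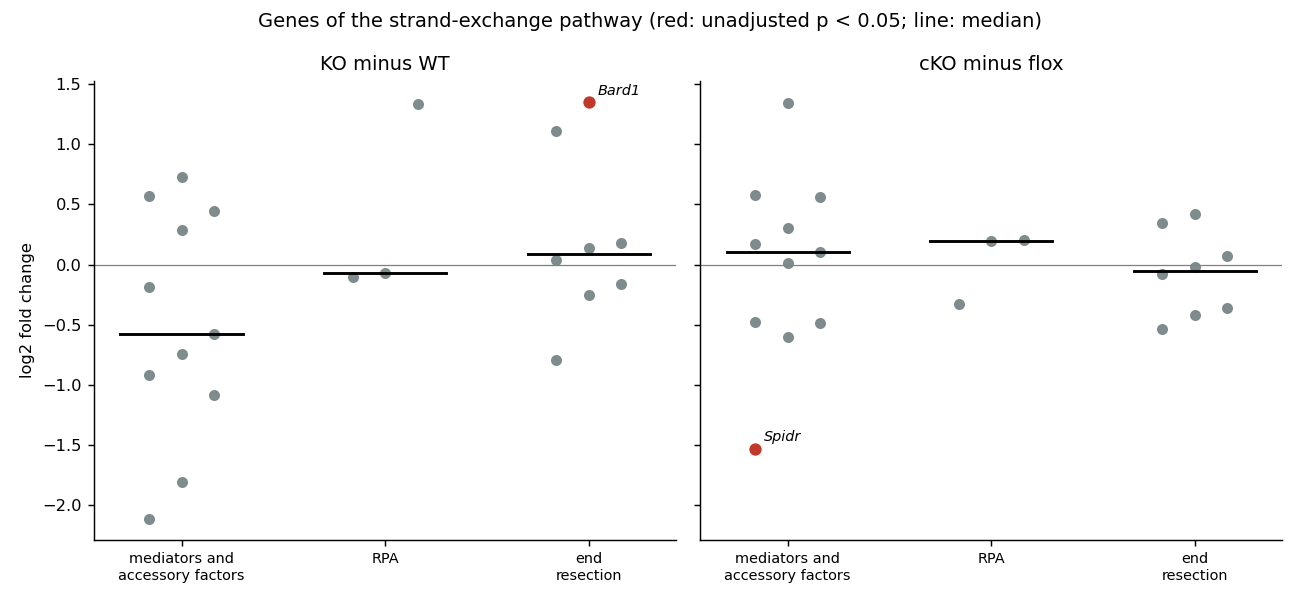
Log2 fold change (y axis) of the 22 tested genes of 3 strand-exchange lists in KO minus WT (left) and cKO minus flox (right), 1 point per gene, with the median of each list as a line. Genes in red had an unadjusted p under 0.05 (*Bard1* on the left, *Spidr* on the right), and none passed after adjustment.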

How the data were processed

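The authors trimmed adapters with cutadapt, aligned reads to mm10 with STAR 2.6.0 and counted them per gene with featureCounts 1.6.3. They deposited these counts without normalization, 1 column per embryo, and the submitters' notes also name edgeR 3.28.1 and limma 3.42.2. The annotation and the strand setting of the counting are not given in the sources used here, and all 55335 gene lengths in the table equal the whole interval, introns included. No molecular identifiers are described, so reads copied from 1 molecule cannot be recognised. The authors' 2 comparison tables hold log2 fold changes, mean log2 expression, t statistics, p-values, adjusted p-values and log-odds, and were not used. Symbols came from GENCODE M21, which matched 54587 genes and left 748 without one. Groups follow the labels, which describe libraries as separate embryos.

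The deposited counts were analysed in R 4.3.3 with edgeR 4.0.16. The genes passing filterByExpr (minimum count 10, minimum total 15) numbered 13086 and included 5 of 6 members. TMM factors scaled the libraries, and the quasi-likelihood test used 1 fit of all 13 libraries with 4 group means and Benjamini-Hochberg adjustment over all genes tested (common biological coefficient of variation 0.841). The SE of a fitted difference was its absolute log2 fold change divided by the square root of the F statistic. The 95% confidence intervals were built from this SE and the t distribution. The fit was also run on simulated counts with changes larger than those fitted for the members, which cannot show whether changes of the members' size would be found. Compared were KO with WT, cKO with flox, the average and difference of these effects, flox with WT, and the conditional with the constitutive cross. An exact two-sided permutation of libraries was added for single genes, on mean log2 CPM (prior count 2), and correlations by 100000 resamples or, within a cross, exactly. Alternatives were RLE and upper-quartile scaling, other filters, DESeq2 1.42.0, limma 3.58.1 voom, fits of only the 2 groups, a replicate block and each library left out. Named were the members, pathway genes with the lowest or an unadjusted p under 0.05, and the 2 nearest profiles among genes averaging 50 or more counts per library. Members and lists were chosen with earlier results of these data known. Some genes of the pathway are not reported here.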

Additional observations from a re-analysis of the deposited data

How the results depend on the processing

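No member was called under any alternative, and of 168 changes of the members, *Gm49340*, *Bard1* and *Spidr* recomputed with another scaling, filter, tool or fit, 166 kept their sign. The 2 exceptions were *Dmc1* between the crosses, at −0.16 by limma's voom and −0.39 with the replicate block, beside 0.06. Same-numbered libraries did not deviate together (correlations of −0.07 to 0.07), so the numbers were not taken as pairs, although each flox and cKO pair correlated best with its own number. The block changed no call of a member. With 1 library left out, 21 of 286 changes turned sign. *Dmc1* ran from −0.71 to 0.35 (KO against WT), −0.70 to 0.36 (cKO against flox) and −0.27 to 0.34 (crosses), and *Meiob* from −0.76 to 0.30, −0.60 to 0.25 and −0.17 to 0.36. *Brca2* (−0.44 to 0.018) and *Gm49340* (−0.058 to 0.54) turned in cKO against flox, and *Psmc3ip* between the crosses (−0.14 to 0.32). Genes called over the whole table rose without a filter beyond 1 count to 15 for KO against WT, 11 for cKO against flox, 17 for their average, 8 for their difference, 15 for flox against WT and 35 for the crosses. By DESeq2 they were 12, 5, 14 and 10 for the first 4 and 35 for the crosses. With at least 10 counts in every library the average had 1, and flox against WT and the crosses 0. Leaving out 1 library gave 0 to 2 for KO against WT, 0 to 1 for the average, 1 to 4 for flox against WT, 1 to 11 for the crosses, and 0 otherwise. The cause of these shifts was not tested. The members with the fewest reads were *Psmc3ip* (61 to 242 counts per library) and *Dmc1* (54 to 560), and 385 of the last 500 bases of *Psmc3ip* are shared with *Mlx*.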
